A study of Rattus norvegicus with 9 samples.

Results

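The granins and the enzymes that process neuropeptides were followed in cultured rat pinealocytes after knockdown of 1 of 2 homeodomain transcription factors, Bsx or Lhx4. The 10 genes were taken by name, as the granins Chga, Chgb, Scg2, Scg3, Scg5 and Vgf and the processing enzymes Pcsk1, Pcsk2, Cpe and Pam. Of these, 9 had a row in both of the authors' tables, which hold 26854 genes each, and 8 carried an adjusted p-value, as did 14876 genes in all. Vgf was not analysed here. Pcsk1 had a mean over the 3 groups of 27.7 normalized counts, below the 28.6 of the lowest gene with an adjusted p-value.

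Total RNA was sequenced from primary pinealocytes of adult Sprague-Dawley rats, isolated from the pineal gland with papain, kept in serum-containing medium and transfected with Stealth siRNA. The 9 libraries comprised 3 with an siRNA against Bsx (siBsx), 3 with an siRNA against Lhx4 (siLhx4) and 3 with a non-targeting siRNA (siNT), each at 40 nM, and cells were harvested on the third day. Each target was hit by 1 siRNA, so an off-target effect cannot be told apart from that of losing the target. The labels do not say whether replicates came from separate cultures or animals, so p-values measure the spread between these libraries, which may be technical. No library values of these genes were among those analysed here, so each value below is a group mean or a fold change with its standard error (SE). Group means were computed from the authors' mean normalized counts and fold changes. The siBsx table gives the SE, and for siLhx4 it was derived from the p-value.

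Granins are acidic secretory proteins of endocrine cells and neurons. They aggregate in the trans-Golgi network, help to form dense-core granules and are themselves cut into peptides. Inside the granules, prohormone convertases cut precursors at paired basic residues, carboxypeptidase E trims the basic residues left behind, and Pam amidates the new C-terminus. Pinealocytes are best known for melatonin, which is not stored in granules, but they also contain dense-core vesicles. The study asked what Bsx and Lhx4 do in the adult gland.

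Sequence upstream of the transcription start was taken from RefSeq on build GRCr8 for 8 of the 10 genes, all except Chga and Pcsk1. The expression tables were made on rn6, so no value was placed on these coordinates. The 250 bases before the start are shown for Scg2, Scg3, Chgb and Pcsk2, picked after their values were seen as the genes with a called change of over 25% in either knockdown. Capitals mark matches on either strand to 4 motifs, namely the cAMP response element, TGACGTCA; its shorter core, TGACG, which every full element also holds; the homeodomain core, TAATTA; and the core bound by Crx-type factors, GGATTA. A match on the opposite strand appears as its reverse complement.
Scg2: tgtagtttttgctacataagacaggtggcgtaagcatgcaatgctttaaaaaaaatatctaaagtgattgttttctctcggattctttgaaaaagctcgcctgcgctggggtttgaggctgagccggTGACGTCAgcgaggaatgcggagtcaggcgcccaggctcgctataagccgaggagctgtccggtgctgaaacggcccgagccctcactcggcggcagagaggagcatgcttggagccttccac
Scg3: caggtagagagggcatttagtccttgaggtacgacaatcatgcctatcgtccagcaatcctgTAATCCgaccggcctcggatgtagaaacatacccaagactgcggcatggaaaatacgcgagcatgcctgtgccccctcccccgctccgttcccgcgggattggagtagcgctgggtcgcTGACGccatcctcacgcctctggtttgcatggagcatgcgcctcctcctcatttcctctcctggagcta
Chgb: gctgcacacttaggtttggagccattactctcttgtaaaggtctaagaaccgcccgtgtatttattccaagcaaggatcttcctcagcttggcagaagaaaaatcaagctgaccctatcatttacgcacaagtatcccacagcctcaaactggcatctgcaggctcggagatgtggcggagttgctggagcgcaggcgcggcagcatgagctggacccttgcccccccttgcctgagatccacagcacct
Pcsk2: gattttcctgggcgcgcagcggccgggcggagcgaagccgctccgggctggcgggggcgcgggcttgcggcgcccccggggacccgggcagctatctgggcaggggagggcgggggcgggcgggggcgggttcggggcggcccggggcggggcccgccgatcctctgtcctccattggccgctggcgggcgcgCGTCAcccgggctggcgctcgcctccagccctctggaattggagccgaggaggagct
These stretches lie at chr9:88256867-88257116 on the minus strand for Scg2, chr8:85322485-85322734 on the minus strand for Scg3, chr3:140496462-140496711 on the plus strand for Chgb and chr3:151333688-151333937 on the plus strand for Pcsk2. The full element TGACGTCA stood 123 to 116 bases before the start of Scg2. It was found in 2 of the 8 upstream stretches, those of Scg2 and Vgf, and in 1.59% of 33469 rat stretches of the same length. The shorter core was found in 7 of the 8, all except Chgb, against 18.2% of all stretches. The full set was not matched to the 8 for GC content, which ran from 53.2% in Scg5 to 79.6% in Pcsk2. TAATTA was in 0 of the 8, against 4.86% of all stretches. GGATTA was in 1 of the 8, that of Scg3, against 6.34% of all.

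The knocked-down genes were first checked. Lhx4 had 3420, 3634 and 3551 normalized counts in the 3 siLhx4 libraries, against 18963, 18331 and 19156 in the 3 siNT libraries, and these groups did not overlap. In the authors' deposited table for siBsx, Bsx was at 20.7% of siNT and Lhx4 at 110%. In the authors' deposited table for siLhx4, Bsx was at 55.2% of siNT, so the siLhx4 libraries also had less Bsx RNA. Both comparisons share the 3 siNT libraries. The 11 pinealocyte markers with a row summed to 578670 normalized counts in siBsx, 488893 in siLhx4 and 625409 in siNT, mostly from Tph1, an enzyme of serotonin synthesis. With siBsx 4 were higher and 5 lower, from Gnb3 at 41.9% of siNT to Sag at 178% of siNT, and with siLhx4 0 were higher and 7 lower. These and the marker counts below are of genes that passed an adjusted p of 0.05. Of all 14876 genes tested, 17.2% passed with siBsx and 17.7% with siLhx4. Mean normalized counts of all genes summed to 78113100 in the siBsx table and 76178600 in the siLhx4 table; totals of single libraries were not used here.

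Markers of some other cell types also differed between the groups. The 10 astrocyte markers summed to 12640 normalized counts in siBsx, 18687 in siLhx4 and 14926 in siNT, with 4 of the 8 tested lower with siBsx and 4 higher with siLhx4. The 10 fibroblast markers summed to 2942 in siBsx, 5026 in siLhx4 and 3602 in siNT, with 2 of 9 lower with siBsx and 3 higher with siLhx4. The 7 mural cell markers summed to 3581 in siBsx, 9889 in siLhx4 and 7054 in siNT, mostly from Myh11. Of the 5 mural markers tested, 2 were lower with siBsx and 1 was higher with siLhx4. The 11 neuronal markers summed to 9310 in siBsx, 8245 in siLhx4 and 7845 in siNT, with 2 of 7 higher with siBsx, and 2 higher and 1 lower with siLhx4. Syn2 was the largest of the neuronal markers in each group. The neuronal nuclear marker Rbfox3 had 3.06 normalized counts in siBsx, 4.09 in siLhx4 and 0.888 in siNT. At these low counts Rbfox3 had no adjusted p-value, so no change of it is shown. Schwann cell markers summed to 1601 in siBsx, 1841 in siLhx4 and 1510 in siNT, endothelial markers to 870, 1167 and 855, and microglial markers to 488, 398 and 441, in the same order of groups. Of 7 Schwann cell markers tested, 1 was higher with siBsx and 2 with siLhx4. Of 6 endothelial markers tested, 0 were called with siBsx and 1 was higher with siLhx4. Of 3 microglial markers tested, 1 was higher with siBsx and 0 were called with siLhx4. The fibroblast marker Lum had computed means of 0 in siBsx, 2.66 in siLhx4 and 0.0754 in siNT. A computed 0 in siBsx arises only where the mean over the siBsx and siNT libraries is 0. The siNT value of Lum thus comes from the siLhx4 comparison alone and shows no expression. In bulk RNA, fewer cells of a type and less RNA per cell cannot be told apart, and the part of these markers in the changes of the granins was not tested.

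Of the 8 genes with an adjusted p-value, 5 passed 0.05 with siBsx (3 higher, 2 lower) and 4 with siLhx4 (1 higher, 3 lower). Among all 14876 genes, 17.2% passed with siBsx (7.59% higher, 9.61% lower) and 17.7% with siLhx4 (8.07% higher, 9.59% lower). Scg2 and Chga were lower in both knockdowns, Scg3 moved in opposite directions, Chgb and Pam rose with siBsx, and Pcsk2 rose with siLhx4. Thus 3 of the 8 were called in both knockdowns, beside 1084 of all 14876 genes. Scg5 and Cpe passed in neither. DESeq2's Wald test uses the normal distribution, and with a t distribution of 6 degrees of freedom in its place the calls of Chga and Pcsk2, of Scg3 with siBsx and of Pam were lost. With 4 degrees of freedom all calls of these genes against siNT were lost. Of all 14876 genes, 795 with siBsx and 699 with siLhx4 were called with 6 degrees of freedom, and 36 and 1 with 4. So few genes of any kind passed with 4 that the loss says little about these genes in particular. The median log2 fold change over the 8 genes was 0.10 with siBsx and -0.11 with siLhx4, beside 0.0002 and 0.003 over all genes tested.

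**Figure D1:**
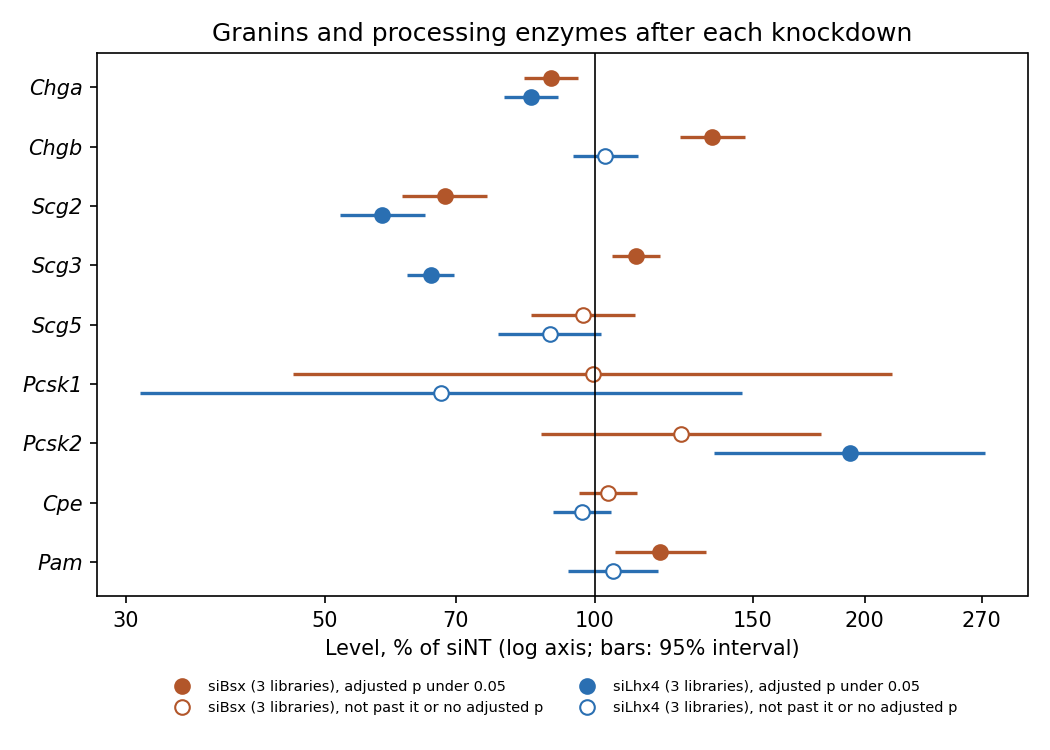
Level of each gene with siBsx (upper point) and siLhx4 (lower point) as a percentage of siNT, on a log axis, from the authors' log2 fold changes; bars are 95% intervals and filled points passed an adjusted p of 0.05. Scg2 lies left of the siNT line in both knockdowns, at 68.0% and 57.9%, whereas Scg3 lies right of it with siBsx, at 111%, and left of it with siLhx4, at 65.6%.

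Secretogranin II (Scg2), the precursor of secretoneurin, had the largest fall of the group. Its mean, computed from the authors' tables, was 1670 normalized counts in siBsx, 1424 in siLhx4 and 2457 in siNT. It fell by 32.0% with siBsx in the authors' deposited table (log2 -0.56 ± 0.081, SE; DESeq2, adjusted p = 2.25e-10). With siLhx4 it fell by 42.1% in the authors' deposited table (log2 -0.79 ± 0.081, SE; DESeq2, adjusted p = 2.11e-20). By p-value it ranked 373 of 14876 genes with siBsx and 106 with siLhx4. The upstream stretch of this gene is the one printed above with the full cAMP response element, the sequence to which the cAMP-activated factor CREB binds. Whether this element bears on the fall of Scg2 was not tested.

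Secretogranin III (Scg3), which binds chromogranin A and tethers it to cholesterol-rich granule membrane, was the only 1 of these genes called in opposite directions. Its mean was 25510 normalized counts in siBsx, 15061 in siLhx4 and 22967 in siNT. It rose by 11.1% with siBsx in the authors' deposited table (log2 0.15 ± 0.045, SE; DESeq2, adjusted p = 0.00646). It fell by 34.4% with siLhx4 in the authors' deposited table (log2 -0.61 ± 0.045, SE; DESeq2, adjusted p = 4.10e-39). With siLhx4 it had the smallest p-value of the group, at rank 37 of 14876 genes.

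Of the chromogranins, the best known granins, Chga was lower in both knockdowns and Chgb rose with siBsx. Chromogranin A (Chga) had a mean of 20651 normalized counts in siBsx, 19617 in siLhx4 and 23122 in siNT. It fell by 10.7% with siBsx in the authors' deposited table (log2 -0.16 ± 0.051, SE; DESeq2, adjusted p = 0.0115). With siLhx4 it fell by 15.2% in the authors' deposited table (log2 -0.24 ± 0.051, SE; DESeq2, adjusted p = 6.07e-05). Chromogranin B (Chgb) had a mean of 19662 normalized counts in siBsx, 14937 in siLhx4 and 14545 in siNT. It rose by 35.2% with siBsx in the authors' deposited table (log2 0.43 ± 0.061, SE; DESeq2, adjusted p = 4.58e-11). With siLhx4 it stood 2.69% above siNT, with a 95% interval from -5.49% to 11.6%, and did not pass (adjusted p = 0.761 from DESeq2 in the authors' deposited table).

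Scg5, also called 7B2, is the chaperone that keeps the convertase PC2 inactive until it reaches the granule. Its mean was 1520 normalized counts in siBsx, 1395 in siLhx4 and 1567 in siNT. It passed in neither comparison according to the authors' deposited table (adjusted p from DESeq2 of 0.842 with siBsx and 0.261 with siLhx4). The 95% intervals of its change ran from -15.1% to 10.8% with siBsx and from -22.0% to 1.68% with siLhx4.

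**Figure D2:**
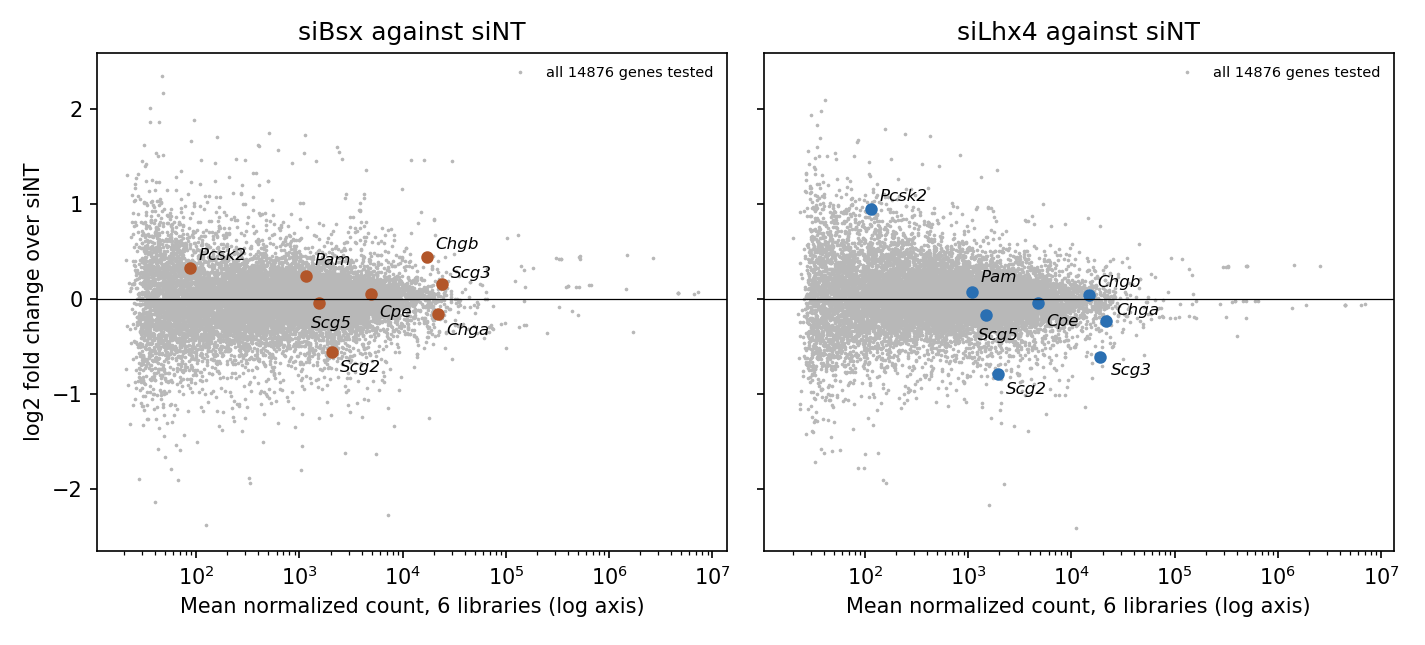
Log2 fold change over siNT against mean normalized count of 6 libraries (log axis) in the authors' tables, for siBsx (left) and siLhx4 (right); grey points are the 14876 genes with an adjusted p-value and coloured points the 8 of these genes among them. With siLhx4 Scg2 and Scg3 lie below 0, at -0.79 and -0.61, and Pcsk2 lies above it, at 0.94, at low counts.

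Of the 2 prohormone convertases, Pcsk1 and Pcsk2, both were at low counts. PC2 (Pcsk2), which works with Scg5, had a mean of 97.5 normalized counts in siBsx, 150 in siLhx4 and 78.0 in siNT. It rose 1.92-fold with siLhx4 in the authors' deposited table (log2 0.94 ± 0.26, SE; DESeq2, adjusted p = 0.00242), with a 95% interval from 35.9% to 172% above siNT. With siBsx it stood 24.8% above siNT without passing (adjusted p = 0.488 from DESeq2 in the authors' deposited table), with a 95% interval from -12.8% to 78.6%. PC1/3 (Pcsk1) had a mean of 31.0 normalized counts in siBsx, 20.9 in siLhx4 and 31.1 in siNT. It had no adjusted p-value, and the 95% intervals of its change, from -53.9% to 114% with siBsx and from -68.9% to 46.1% with siLhx4, were the widest of the 9 genes on the log2 scale.

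Of the enzymes that finish the peptides, Pam rose with siBsx and Cpe did not pass. Carboxypeptidase E (Cpe) had a mean of 4998 normalized counts in siBsx, 4675 in siLhx4 and 4831 in siNT. It passed in neither comparison according to the authors' deposited table (adjusted p from DESeq2 of 0.638 with siBsx and 0.644 with siLhx4), and its 95% intervals ran from -3.93% to 11.4% with siBsx and from -10.1% to 4.20% with siLhx4. The amidating enzyme Pam had a mean of 1265 normalized counts in siBsx, 1119 in siLhx4 and 1069 in siNT. It rose by 18.3% with siBsx in the authors' deposited table (log2 0.24 ± 0.085, SE; DESeq2, adjusted p = 0.0294). That call was lost when p-values were adjusted over every gene with a p-value (adjusted p = 0.0526). With siLhx4 Pam stood 4.72% above siNT and did not pass (adjusted p = 0.685 from DESeq2 in the authors' deposited table).

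The 2 knockdowns were then compared with each other, in a Wald test rebuilt from both tables in which the siNT level cancels. Of the 8 genes, 3 passed an adjusted p of 0.05, all higher in siBsx than in siLhx4, beside 22.7% of all genes tested, 10.8% higher and 11.9% lower in siBsx. Scg3 differed most, at 1.69-fold (log2 difference 0.76 ± 0.045, SE; rebuilt Wald test, adjusted p = 1.95e-61), and ranked 45 of 14876 genes by p-value. Chgb was 1.32-fold higher in siBsx (log2 difference 0.40 ± 0.061, SE; adjusted p = 2.07e-09). Scg2, which was lower than siNT in both, was 1.17-fold higher in siBsx than in siLhx4 (log2 difference 0.23 ± 0.082, SE; adjusted p = 0.0251), a call lost with 6 degrees of freedom (adjusted p = 0.157). Pcsk2 did not pass (log2 difference -0.63 ± 0.26, SE; adjusted p = 0.0604), so its call with siLhx4 and not with siBsx does not show that the knockdowns differed. The same holds for Pam, with a log2 difference of 0.18 ± 0.085 (SE; adjusted p = 0.128). Chga (adjusted p = 0.335), Cpe (0.217) and Scg5 (0.426) did not pass, with 95% intervals of the log2 difference from -0.03 to 0.17, from -0.01 to 0.20 and from -0.07 to 0.32.

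**Figure D3:**
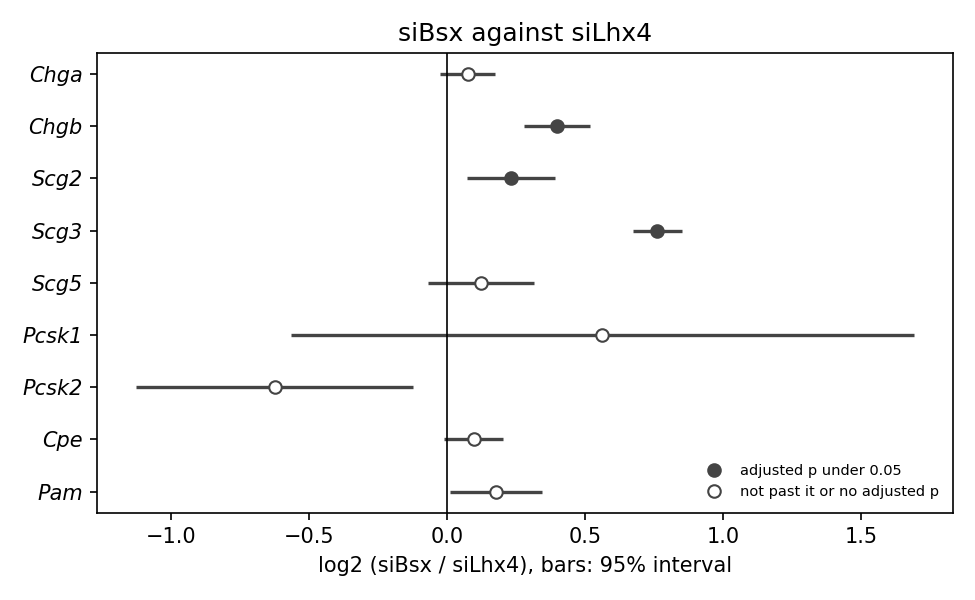
Log2 ratio of siBsx over siLhx4 for each gene with its 95% interval; filled points passed an adjusted p of 0.05 in the rebuilt Wald test. Scg3, at 0.76, and Chgb, at 0.40, lie farthest right of 0 among the filled points, and the interval of Pcsk1 is the widest.

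Other genes of the pathway were taken from 3 lists. Of 26 other convertases, carboxypeptidases, peptidases and peptide-modifying enzymes, 20 had an adjusted p-value. With siBsx, 1 of the 20 rose and 6 fell, together 35% of the list beside 17.2% of all genes tested, with a median log2 fold change of -0.09. In the authors' deposited table Cpd, a carboxypeptidase of the trans-Golgi network, rose by 24.8%. Among those that fell, the authors' deposited table gave changes of -35.4% for the convertase Pcsk4, -29.7% for the membrane carboxypeptidase Cpm, -21.5% for the lysosomal protease Ctsb and -19.7% for the lysosomal protease Ctsl (adjusted p from DESeq2 between 2.32e-14 and 0.0083). With siLhx4, 2 of the 20 rose and 0 fell, 10% beside 17.7% of all genes, with a median of 0.06. These were the tyrosine sulphotransferase Tpst1, by 23.2%, and the endothelin-converting enzyme Ece1, by 15.8% according to the authors' deposited table (adjusted p from DESeq2 of 7.07e-06 and 0.012). Ece1 was also called with siBsx, where it fell by 17.9% (adjusted p = 0.000382 from DESeq2 in the authors' deposited table). It was the only gene of the 20 called against siNT in both knockdowns, beside 1084 of all 14876 genes. It was lower in siBsx than in siLhx4 (-29.1%, rebuilt Wald test, adjusted p = 7.72e-12). Between the knockdowns, 2 of the 20 were higher and 8 lower in siBsx (rebuilt Wald test, median log2 difference -0.25), 50% beside 22.7% of all genes. With a t distribution of 6 degrees of freedom 2, 1 and 6 of the 20 were called with siBsx, with siLhx4 and between the knockdowns, and with 4 degrees of freedom 0, 0 and 1. Of all 14876 genes, 795, 699 and 1307 were called in that order with 6 degrees of freedom, and 36, 1 and 291 with 4.

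Of 41 genes of granule formation, transport, loading and release, 34 had an adjusted p-value. With siBsx, 0 rose and 4 fell, 11.8% beside 17.2% of all genes tested, and the median log2 fold change was -0.009. Among those that fell, the authors' deposited table gave changes of -29.0% for the membrane fusion protein Stx1a, -22.5% for the granule motor Kif1a and -20.6% for the granule docking GTPase Rab27a (adjusted p from DESeq2 between 3.37e-07 and 0.0158). With siLhx4, 1 rose and 7 fell, 23.5% beside 17.7% of all genes, and the median was -0.06. The authors' deposited table gave -24.1% for Ica1, which acts in granule formation, -18.1% for the vesicle GTPase Rab3a, -17.4% for the motor Myo5a and -17.0% for Kif1a (adjusted p from DESeq2 between 2.42e-06 and 0.00222). It gave 14.5% for the GTPase Rab2a, which rose and passed narrowly (adjusted p = 0.0461 from DESeq2). The other 3 that fell, picked out after their values were seen, were the granule membrane proteins Ptprn and Ptprn2, at -15.1% each, and the fusion protein Snap25, at -12.9%, in the authors' deposited table. Between the knockdowns, 7 of the 34 were higher and 2 lower in siBsx (rebuilt Wald test, median log2 difference 0.10), 26.5% beside 22.7% of all genes. At an adjusted p of 0.01, 2, 7 and 5 of the 34 were called with siBsx, with siLhx4 and between the knockdowns. With 6 degrees of freedom 1, 2 and 3 were called in that order, and with 4 degrees of freedom 0 in each.

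Of 58 precursors of neuropeptides and peptide hormones, 57 had a row and 17 had an adjusted p-value. With siBsx, 1 rose, adrenomedullin (Adm), by 48.7% (adjusted p = 0.000482 from DESeq2 in the authors' deposited table), and 0 fell, so that 5.88% of the 17 were called beside 17.2% of all genes tested. With siLhx4, 2 rose and 1 fell, 17.6% beside 17.7% of all genes. With 6 degrees of freedom 0 of the 17 were called with siBsx and 1 with siLhx4, and with 4 degrees of freedom 0 in both. Proenkephalin (Penk), the precursor of the enkephalins, had a mean of 4449 normalized counts in siBsx, 7899 in siLhx4 and 4637 in siNT. With siLhx4 it rose by 70.3% in the authors' deposited table (log2 0.77 ± 0.15, SE; DESeq2, adjusted p = 4.10e-06). Adm rose by 55.8% and the related Adm2 fell by 28.1% according to the authors' deposited table (adjusted p from DESeq2 of 5.65e-05 and 0.0437). Between the knockdowns, 2 of the 17 were higher and 2 lower in siBsx (rebuilt Wald test), 23.5% beside 22.7% of all genes. Penk was lower in siBsx than in siLhx4 (log2 difference -0.83 ± 0.15, SE; rebuilt Wald test, adjusted p = 3.44e-07). Sct was also lower in siBsx (log2 difference -1.21 ± 0.37, SE), and Edn3 (1.76 ± 0.54) and Adm2 (0.50 ± 0.18) were higher. Their adjusted p-values in the rebuilt Wald test were 0.00724, 0.00778 and 0.0258. Counts of Sct and Edn3 were low, at 42.9 and 51.6 normalized counts in siBsx and 99.4 and 15.0 in siLhx4. With a mean of at least 100 required, 2 precursors were called between the knockdowns. With 6 degrees of freedom 1 of the 17 was called between the knockdowns, and with 4 degrees of freedom 0. Neuropeptide Y (Npy), picked out after its values were seen, had 55.9 normalized counts in siBsx, 56.7 in siLhx4 and 50.7 in siNT, and passed in neither comparison.

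**Figure D4:**
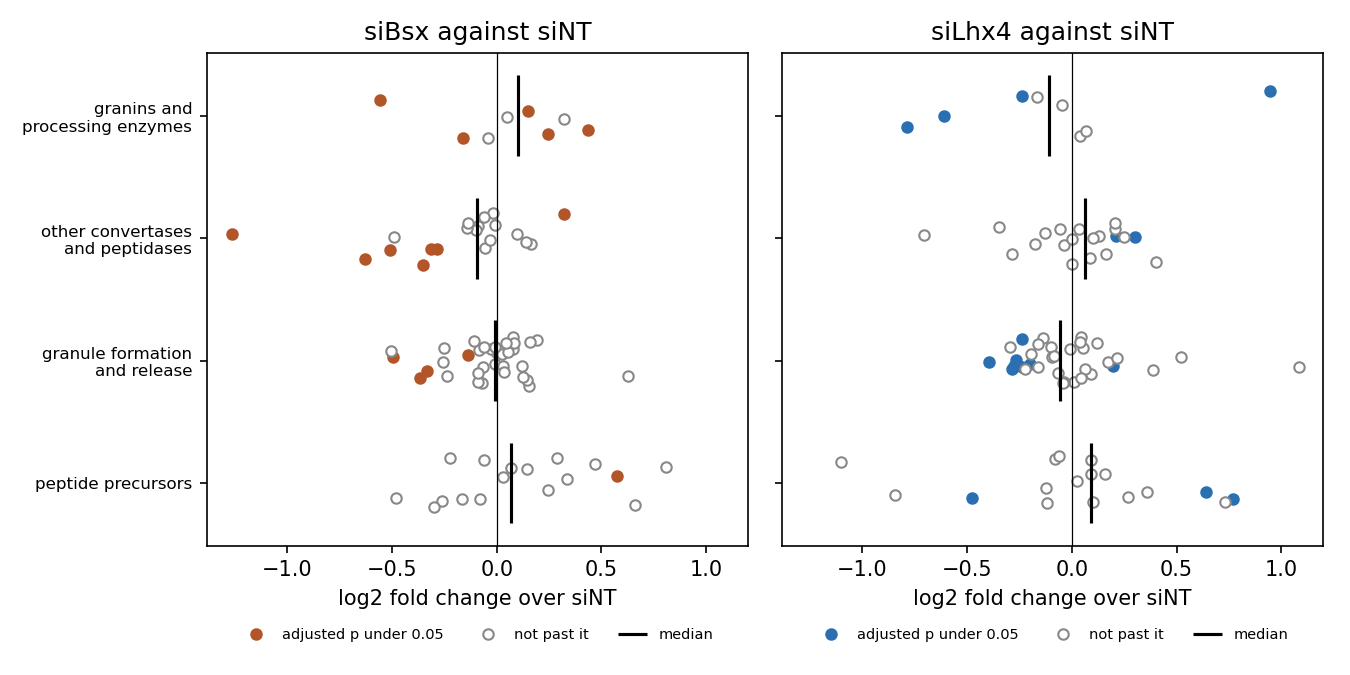
Log2 fold change over siNT of each gene with an adjusted p-value in 4 lists, for siBsx (left) and siLhx4 (right), from the authors' tables; filled points passed an adjusted p of 0.05, black bars are list medians, and vertical scatter within a list has no meaning. The granins and processing enzymes spread from -0.56 to 0.43 with siBsx and from -0.79 to 0.94 with siLhx4.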

How the data were processed

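RNA from the 3 siBsx, 3 siLhx4 and 3 siNT samples was prepared with a stranded total RNA kit after ribosomal RNA depletion and sequenced on 1 flow cell, per the labels' protocols. Per the submitters' processing notes, the tools were DESeq2 1.16.1, featureCounts of Subread 1.5.2, STAR 2.5.4a and bcl2fastq 2.20.0.422, with build rn6. The annotation and strand setting are not given in the sources used here. The deposited signal values are the authors' normalized counts, averaged over 6 libraries. The deposited log2 values are the authors' fold changes over siNT and, for siBsx, their standard errors. As a score, the authors deposited the Wald statistic of siBsx, which was checked to be the fold change divided by its error. Each deposited p-value comes unadjusted and with the authors' Benjamini-Hochberg adjustment. A further sheet of normalized counts per library, as used here, holds 14 genes, 0 of them among the 10 genes, and served for Lhx4 alone.

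Calls used the authors' DESeq2 adjusted p at 0.05, since the values per library that a refit needs were not among those used. The siNT, siBsx and siLhx4 means were solved from each table's mean and fold change. Over the genes with an adjusted p-value, siNT means from the 2 tables had ratios from 0.988 to 1.01. Standard errors of siLhx4 were obtained by dividing each log2 fold change by the normal quantile matching its p-value. The siBsx against siLhx4 test took the difference of the log2 fold changes, with a standard error from the group means and the dispersion that gives the siBsx standard error, and adjusted over 14876 genes. Standard errors predicted in that way for siLhx4 were compared with those from p-values, and the median of p-value-based over predicted errors was 0.991. Intervals are 95% normal intervals. Normalized counts are not divided by gene length, so levels are not compared between genes. Counting error and depth per library could not be separated from replicate spread.

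The genes and lists were chosen with earlier results of these data known. From each list and knockdown, up to 4 called genes per direction whose mean reached 50 normalized counts were named, except 1 that is not reported here. Python 3.11.15, numpy 2.4.6, scipy 1.17.1 and pandas 2.3.3 were used. Alternatives were a threshold of 0.01, t references with 4 or 6 degrees of freedom, no filter on low means, a mean of at least 100, recentring, and dispersions from the siLhx4 table.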

Additional observations from a re-analysis of the deposited data

How the results depend on the processing

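No paired analysis was possible because the tables of all genes hold no values per library, and leaving out a replicate was not run for the same reason, nor was another pseudocount for values per library. Of the 8 genes tested, the number called was 5 with siBsx, 4 with siLhx4 and 3 between the knockdowns. Under a t distribution with 4 degrees of freedom these became 0, 0 and 1 (Scg3), and all genes called became 36, 1 and 291. With 6 degrees of freedom 2 were called with siBsx (Chgb and Scg2) and 2 with siLhx4 (Scg2 and Scg3), and all genes called became 795, 699 and 1307. The values 4 and 6 are the degrees of freedom left by 2 and 3 groups of 3 libraries when each gene is taken alone. They make no allowance for dispersions that DESeq2 estimates with information from all genes, so both settings are stricter than the authors' fit. At an adjusted p of 0.01, 3 were called with siBsx, without Chga and Pam, and Scg2 no longer passed between the knockdowns. All genes called at 0.01 were 1800 with siBsx, 1817 with siLhx4 and 2403 between the knockdowns. Apart from recentring, the alternatives left the fold changes as they were and so could not reverse a direction. Recentring shifted fold changes by at most 0.003 on the log2 scale and reversed no direction among these genes. The calls in the other lists fell with both t distributions as well, as given beside them. Low counts limit Pcsk1 and Pcsk2 and, among the precursors, Sct and Edn3.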
